A study of Rattus norvegicus with 8 samples.

Results

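The genes described here are the collagens, the laminins, the matrix metalloproteinases (MMPs), the ADAMTS proteases and the tissue inhibitors of metalloproteinases (TIMPs) in the rat retina after optic nerve crush. They were picked by gene name, as Col, Lama, Lamb, Lamc, Mmp, Adamts or Timp followed by the numbering of the family. Earlier results of these data were known when this choice was made. The names matched 82 of the 26334 gene names on the arrays: 34 collagens, 8 laminins, 21 MMPs, 15 ADAMTS and 4 TIMPs, read by 102 probes on 174 spots. The retinas came from female Lister Hooded rats 8 weeks old, 4 sham-operated (CTR) and 4 with the optic nerve crushed (ONC), and were taken 2 weeks after surgery. In ONC rats forceps were closed on the right nerve for 10 s, 3 mm behind the disc, and the sham surgery left out the crush alone. The 8 retinas were read on 4 dual-color Agilent arrays, 1 retina in each channel.

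The extracellular matrix of the retina lies mostly in sheets. Type IV collagen and laminin, a trimer of an alpha, a beta and a gamma chain, polymerize into the basement membranes of the vessels, of the pigment epithelium and of the inner limiting membrane on which the Müller glia rest, while fibrillar collagens belong chiefly to sclera, vessel walls and vitreous. MMPs and ADAMTS proteases cut these proteins and the proteoglycans between them, and TIMPs bind and block the proteases; both sides of this balance are known to respond to injury of nervous tissue.

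The labels put retinas that share a number on 1 array and give all CTR retinas the dye Cy5 and all ONC retinas Cy3. Dye and condition therefore cannot be told apart. The methods of the study pair retinas differently, and the markers of retinal ganglion cells (RGCs), the neurons known to die after a crush, went against the labels. The study itself reports RGC markers lower and fewer RGCs after the crush. Of 10 RGC markers, 8 were measured, and their summed level, in multiples of the channel median, was 3.35, 23.8, 4.02 and 4.34 in CTR1 to CTR4, against 27.5, 27.4, 28.7 and 3.65 in ONC1 to ONC4. Their markers were thus high in 3 channels labeled ONC and in CTR2, and low in 3 channels labeled CTR and in ONC4. The brightest on average over the channels was Sncg, and Isl2 did not pass the filter on dim spots. Without the 6 channels whose RGC markers oppose their label, 1 channel of each label would remain, so no fit without them can be made. ONC and CTR below mean the channels so labeled, and every direction is a direction between labels.

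A gene was measured where at least 1 of its spots carried no outlier flag and reached 2 times its local background in all 8 channels. This held for 50 of the 82 genes: 25 of 34 collagens, 3 of 8 laminins, 10 of 21 MMPs, 8 of 15 ADAMTS and all 4 TIMPs. Among the 32 others, 17 were well above background, by the scanner software, in no channel, 14 in some channels, and Mmp9, a gelatinase that cuts denatured and type IV collagen, in all 8 channels by at least 1 of its 10 spots. All 32 had a CTR channel under 2 times background, whereas 30 had every ONC channel at 2 times or more, and the median local background was 55 to 56.5 intensity units in the Cy5 channels and 26 to 29.5 in the Cy3 channels. The filter on dim spots therefore acted almost only in the channels labeled CTR.

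On chromosome 8 of the rat assembly used for the array design (rn4), 9 Mmp probes lay within 365 kb, chr8:4168554-4533706, from Mmp13 to Mmp7, and 1 of these 9 genes, the collagenase Mmp13, was measured, on 1 of its 10 spots; over all its spots the median foreground over background was 1.96 in CTR3 and 1.74 in CTR4. The stromelysin Mmp3 had a foreground over background of 1.58, 1.24, 1.37 and 1.53 in CTR1 to CTR4, against 3.02, 2.90, 2.78 and 2.55 in ONC1 to ONC4, and was well above background in no channel. The macrophage elastase Mmp12 was well above background in 1 channel. Among other textbook members, Lama1, the alpha chain of embryonic and glial basement membranes, gave 1.95, 2.39, 2.03 and 1.68 in CTR1 to CTR4, against 3.05, 3.67, 3.64 and 2.75 in ONC1 to ONC4. The aggrecanase Adamts4 gave 1.24, 1.42, 1.45 and 2.13 in CTR1 to CTR4, against 2.98, 2.91, 2.62 and 2.55 in ONC1 to ONC4. Such ratios differ between the dyes with the background and give no comparison of the labels. Mmp9 gave 1.49, 1.97, 1.52 and 1.47 in CTR1 to CTR4, against 3.13, 3.68, 3.17 and 2.66 in ONC1 to ONC4, as medians over its spots.

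Lamb3, a beta chain of epithelial laminin chosen after its values were seen, failed the filter on 1 array. Its single spot had a foreground over background of 22.0, 32.9 and 20.0 in CTR1, CTR2 and CTR3 and of 34.0, 78.7 and 41.2 in ONC1, ONC2 and ONC3, but of 1.73 in CTR4 and 1.45 in ONC4. Both channels of array 4 were low together, with no outlier flag on the spot, and the other 6 channels were well above background. The cause was not tested.

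No collagen, laminin, MMP, ADAMTS or TIMP gene passed the test between ONC and CTR: 0 of 50 had an adjusted p under 0.05 in limma, fitted over all 16307 measured genes, of which 81, or 0.497%, did. At an unadjusted p under 0.05 there were 4 of 50, Adamts1, Adamts7, Col23a1 and Mmp15, against 3025, or 18.6%, of all genes. The median log2 fold change (ONC minus CTR) was -0.00 over the 50 and -0.01 over all genes, with 24 genes higher in ONC and 26 lower. These medians were 0.15 and 0.073 without loess, where 34 of the 50 were higher in ONC. The groups did not overlap for 1 of the 50, Adamts1, and for 2069 of all genes, or 12.7%. The ONC retina was higher on all 4 arrays for 6 genes and lower on all 4 for 8, together 28%, against 39.4% of all genes. The smallest adjusted p among the 50 was 0.149.

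With the array as a block, 1254 genes passed, 7.69% of all, and 3 of the 50 did: Adamts1, Col4a6 and Col23a1. These 3 were lower in ONC, as were 752, or 4.61%, of all genes with that call, so the members' share is near the background in either count. The 3 calls had adjusted p between 0.0419 and 0.0488 in limma, and in 5 refits chosen after seeing the data, without each array in turn and with processed signals from the scanner software, no gene on the arrays passed. The log2 fold changes without 1 array ran from -0.70 to -0.46 for Adamts1, from -0.33 to -0.27 for Col4a6 and from -0.47 to -0.35 for Col23a1. With the block and without loess, 16 of the 50 passed, 15 higher and 1 lower in ONC. Of all 16307 genes 5371 did, 3685 higher and 1686 lower. Col4a6 (-0.18, adjusted p = 0.0972) and Col23a1 (-0.11, adjusted p = 0.42) did not pass. Without loess, 8 of the 50 passed in the unblocked fit, among 3194 of the 16307 genes. Adamts1 was lower in ONC, and Col1a1, Col24a1, Col4a4, Mmp13, Mmp16, Mmp28 and Timp4 were higher. Neither count without loess exceeded the share of all genes. The 7 called higher were dim: with loess their mean CTR levels ran from -4.17 (Mmp13) to -2.53 (Mmp16), against 3.20 for Adamts1. Those called higher with the block also had mean levels below the channel median. The part of the dye in these calls was not tested.

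**Figure D1:**
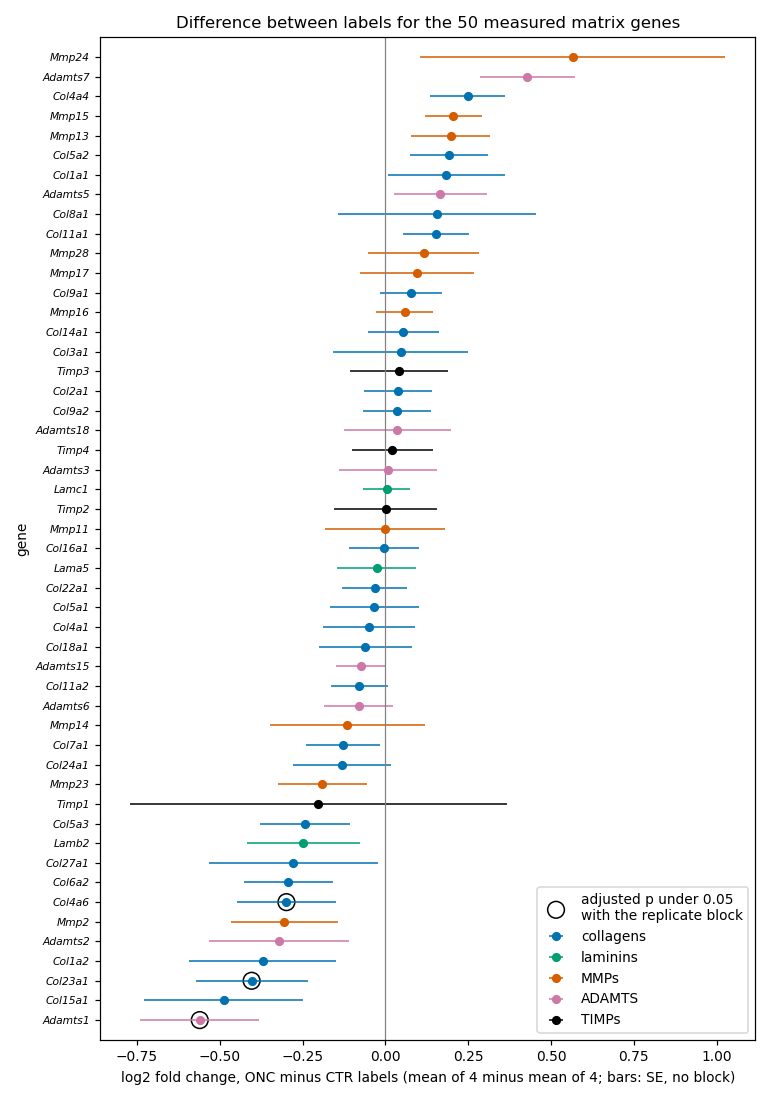
Difference between the labels for each of the 50 measured genes, as the log2 fold change (ONC minus CTR, mean of 4 channels minus mean of 4; bars are the SE without a block), ordered by size and colored by family. The values run from -0.56 for Adamts1 to 0.57 for Mmp24, and the open circles mark the 3 genes with an adjusted p under 0.05 when the array is a block.

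The protease Adamts1, which cuts the proteoglycans aggrecan and versican, had the smallest p of the 50 without the block. Its log2 level, over the channel median, was 2.84, 2.95, 3.56 and 3.46 in CTR1 to CTR4, against 2.71, 2.36, 2.69 and 2.81 in ONC1 to ONC4. Every ONC channel was below every CTR channel, although the lowest CTR value and the highest ONC value lay close, and CTR3 and CTR4 stood above CTR1 and CTR2. The mean was 3.20 ± 0.36 (SD, n = 4) in CTR and 2.64 ± 0.20 in ONC, a log2 fold change of -0.56 (SE 0.18), or 1.47-fold higher in CTR. The adjusted p was 0.149 in limma and 0.0486 with the block, and it ran from 0.0422 to 0.428 over 16 other settings without the block, the lowest without loess. The study reports the direction opposite to that between the labels for this protease and for the inhibitor Timp1. In the 4 channels whose dye is the same in labels and methods, the log2 fold change was -0.51 for Adamts1 and 0.65 for Timp1. The RGC markers oppose the labels in 6 channels, CTR4, ONC1 and ONC3 of these 4 among them. They were low in CTR1, CTR3, CTR4 and ONC4, where Adamts1 was at 2.84, 3.56, 3.46 and 2.81. Timp1 was at 1.34, 2.22, 2.29 and 1.58 there. In the other channels, CTR2, ONC1, ONC2 and ONC3, Adamts1 was at 2.95, 2.71, 2.36 and 2.69. Timp1 was at 0.19, 1.98, -0.13 and 1.81 in those. CTR3 and CTR4 were highest and ONC2 lowest for both genes, but the sets overlapped. The direction between these sets was not tested. The Adamts1 values are means over 7 kept spots of a 10-fold printed probe at chr11:25434383-25434442 (rn4), whose SD between spots was 0.18 in ONC1 and 0.33 in CTR3. RNA was taken from whole retinas, so fewer cells of a type and less RNA per cell cannot be told apart for this or any other gene here.

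The basement membrane collagen Col4a6 had log2 levels of -1.53, -1.76, -1.44 and -1.19 in CTR1 to CTR4, against -1.86, -1.97, -1.83 and -1.45 in ONC1 to ONC4. The groups overlapped, but on each of the 4 arrays the ONC channel was the lower. The log2 fold change was -0.30 (SE 0.15, or 0.07 with the block), with an adjusted p of 0.328 in limma and 0.0488 with the block. Over 16 other settings without the block the adjusted p ran from 0.164 to 0.769, and the fold change from -0.41 to -0.18.

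The transmembrane collagen Col23a1, whose ectodomain is shed from the cell surface, had log2 levels of -2.10, -2.30, -1.72 and -1.81 in CTR1 to CTR4, against -2.29, -2.79, -2.28 and -2.18 in ONC1 to ONC4. It showed the same arrangement, with groups that overlapped through CTR2 and a lower ONC channel on 4 of 4 arrays. The log2 fold change was -0.40 (SE 0.17, or 0.08 with the block), and its 2 probes gave -0.45 and -0.36. The adjusted p was 0.248 in limma and 0.0419 with the block. Over 16 other settings without the block it ran from 0.132 to 0.82, and the fold change from -0.51 to -0.11, the smallest without loess. Of the other transmembrane collagens, Col13a1, Col17a1 and Col25a1 were not measured.

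**Figure D2:**
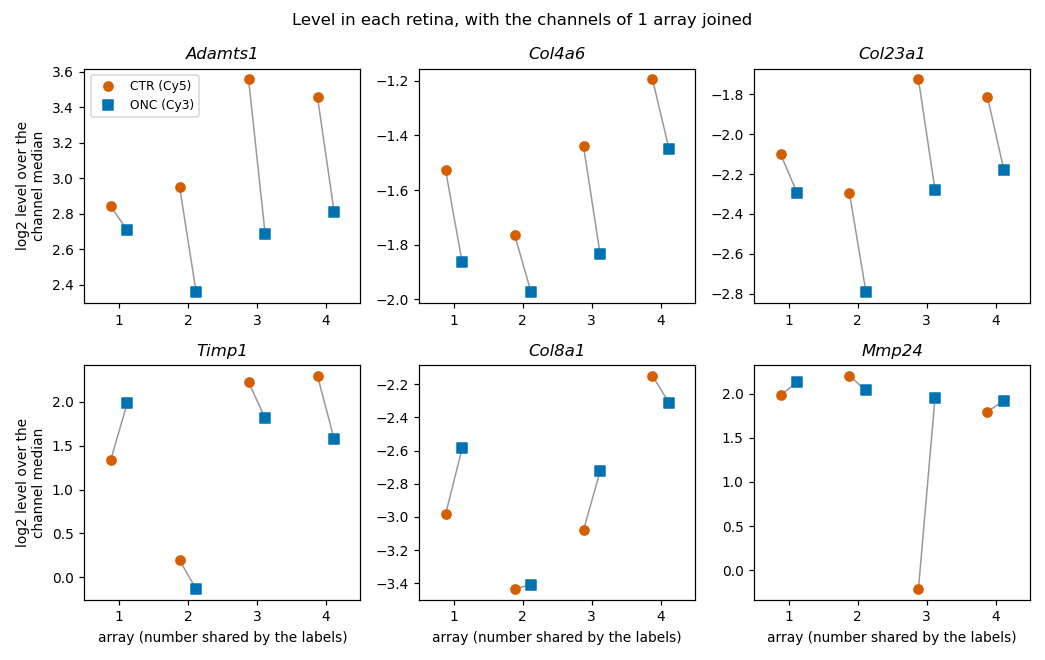
Log2 level over the channel median of 6 genes in each retina (circles, CTR in Cy5; squares, ONC in Cy3), with the channels that share an array joined by a line. Adamts1, Col4a6 and Col23a1 were lower in the ONC channel of all 4 arrays, Timp1 and Col8a1 moved with the array, low in both channels of array 2, and Mmp24 was low in CTR3 alone, at -0.21.

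The stretches upstream of these 3 genes and of Timp1 are shown because 3 of them are the genes called with the block and the fourth had the widest range over the channels. They are the 250 bases before the annotated start, 5′ to 3′ on the strand of the gene, from RefSeq on the assembly GRCr8, which is not that of the array design. Promoters were at hand for 62 of the 82 genes and for 37 of the 50 measured.
Adamts1, chr11:38427385-38427634, minus strand: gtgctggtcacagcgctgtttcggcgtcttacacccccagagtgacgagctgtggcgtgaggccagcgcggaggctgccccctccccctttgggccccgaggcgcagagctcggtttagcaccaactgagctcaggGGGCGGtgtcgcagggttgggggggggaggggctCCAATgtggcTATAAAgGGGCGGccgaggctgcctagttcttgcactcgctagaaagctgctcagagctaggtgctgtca
Col4a6, chrX:109905945-109906194, minus strand: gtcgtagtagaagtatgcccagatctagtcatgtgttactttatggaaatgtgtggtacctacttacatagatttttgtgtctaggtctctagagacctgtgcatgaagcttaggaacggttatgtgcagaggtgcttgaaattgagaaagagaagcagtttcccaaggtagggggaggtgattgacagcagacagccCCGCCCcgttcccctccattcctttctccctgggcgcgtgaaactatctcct
Col23a1, chr10:36050077-36050326, plus strand: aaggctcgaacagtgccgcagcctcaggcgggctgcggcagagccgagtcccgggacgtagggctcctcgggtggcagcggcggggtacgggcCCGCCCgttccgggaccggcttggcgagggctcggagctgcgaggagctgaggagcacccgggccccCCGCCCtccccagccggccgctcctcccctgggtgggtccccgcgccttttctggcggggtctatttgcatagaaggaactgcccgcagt
Timp1, chrX:3771123-3771372, minus strand: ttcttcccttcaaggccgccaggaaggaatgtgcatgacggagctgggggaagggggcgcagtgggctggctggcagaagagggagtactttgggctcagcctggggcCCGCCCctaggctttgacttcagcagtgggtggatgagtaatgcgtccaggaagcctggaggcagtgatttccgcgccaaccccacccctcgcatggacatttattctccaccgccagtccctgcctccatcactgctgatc

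Capitals mark matches, on either strand, to 4 short motifs: the AP-1 motif TGACTCA, the GC box GGGCGG, the CCAAT box CCAAT and the TATA box TATAAA. Adamts1 held a GC box beginning 114 bases before the start, a CCAAT box at 80, a TATA box at 70 and another GC box at 63. Col4a6 held a GC box at 52, Col23a1 GC boxes at 157 and 90, and Timp1 a GC box at 142, all of them on the opposite strand. No AP-1 motif with these exact letters lay in the 4 windows. Among 33469 promoters of the same length, 4.05% held the AP-1 motif, 30.5% a GC box, 34.0% a CCAAT box and 12.9% a TATA box. Of the 37 measured genes with a promoter, 26 held a GC box, 8 a CCAAT box, 4 a TATA box (Adamts1, Adamts7, Col1a2 and Mmp13) and 1 the AP-1 motif (Mmp13). Over all 62 members with a promoter, measured or not, these counts were 33, 17, 16 and 6. The median GC content was 63.6% over 39 promoters of measured members, against 51.2% over all 33469. A match describes the letters only.

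All 11 fibrillar collagens on the arrays were measured. Col1a1, which forms type I collagen with Col1a2, had log2 levels of -2.65, -3.34, -2.92 and -2.66 in CTR1 to CTR4, against -2.49, -3.05, -2.67 and -2.62 in ONC1 to ONC4. It was lowest on array 2 in both channels, and its log2 fold change was 0.18 (SE 0.18, adjusted p = 0.632 in limma). ONC was higher on 4 of 4 arrays (SE 0.07 and adjusted p = 0.14 with the block), and without CTR2 the fold change was 0.034. Without loess it reached 0.60 (adjusted p = 0.0427), and over all 16 other settings without the block the adjusted p ran from 0.0427 to 1.0. Col1a2 gave -2.03, -1.87, -1.7 and -1.39 in CTR1 to CTR4, against -1.77, -2.76, -1.90 and -2.05 in ONC1 to ONC4. The channel ONC2 lay apart here, below the other 7, and the log2 fold change of -0.37 (SE 0.22) had an adjusted p of 0.417. Without ONC2 it was -0.16. The 2 chains of one protein thus had fold changes of opposite sign, and neither passed the test.

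Col3a1, the collagen of elastic vessel walls, had log2 levels of -2.50, -3.00, -2.39 and -2.99 in CTR1 to CTR4, against -2.37, -2.71, -2.47 and -3.14 in ONC1 to ONC4. Both channels of arrays 2 and 4 were low and both channels of arrays 1 and 3 high, so that the range of the array means, 0.64, was far wider than the log2 fold change of 0.05 (SE 0.20, adjusted p = 0.932). That value was 0.41 without loess, a call with the block, and 0.58 in the 4 channels whose dye is the same in labels and methods. Col2a1, the collagen of vitreous and cartilage, was even, at 1.62, 1.47, 1.42 and 1.18 in CTR1 to CTR4, against 1.48, 1.51, 1.44 and 1.42 in ONC1 to ONC4, with a log2 fold change of 0.04 (SE 0.10, adjusted p = 0.891). The other 7 fibrillar collagens had log2 fold changes between -0.28 (Col27a1) and 0.19 (Col5a2). Without loess, Col24a1 turned from -0.13 to 0.60, a call with and without the block, and Col5a2 reached 0.28, a call with the block only.

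Of 6 basement membrane collagens, 5 were measured, and Col4a2 was not analysed here. Col4a1, a chain of the type IV collagen found in all basement membranes, had log2 levels of -2.26, -2.41, -2.08 and -1.85 in CTR1 to CTR4, against -2.08, -2.46, -2.09 and -2.16 in ONC1 to ONC4. The groups overlapped fully, with CTR4 highest and both channels of array 2 lowest, and the log2 fold change was -0.05 (SE 0.14, adjusted p = 0.894). Its 2 probes gave -0.06 and -0.04. Without loess the value was 0.30, a call higher in ONC with the block.

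Col15a1, which links basement membranes to the tissue below them, gave -3.77, -3.72, -3.11 and -2.77 in CTR1 to CTR4, against -3.96, -4.04, -3.91 and -3.41 in ONC1 to ONC4. CTR3 and CTR4 were the highest channels, ONC4 came next, and the ONC channel was the lower on 4 of 4 arrays. Its log2 fold change of -0.49 (SE 0.24, adjusted p = 0.321) was the largest among the collagens. Without loess it was 0.14, so even its sign depends on the scaling. Col18a1, the source of the fragment endostatin, had -0.22, -0.56, -0.01 and -0.56 in CTR1 to CTR4, against -0.45, -0.19, -0.47 and -0.47 in ONC1 to ONC4, with no order between the groups and a log2 fold change of -0.06 (SE 0.14, adjusted p = 0.865). Col4a4, a chain of the glomerular and ocular type IV network, had a log2 fold change of 0.25 and was higher in ONC on 4 of 4 arrays (SE 0.11, adjusted p = 0.281), while Col4a3, whose probe lay 170.0 kb away on chromosome 9 (rn4), was well above background in no channel.

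The fibril-associated collagens, which decorate larger fibrils, had log2 fold changes from -0.03 to 0.08 for the 5 measured of 6. Col9a1, which coats type II fibrils in the vitreous, had -1.46, -1.38, -1.63 and -1.61 in CTR1 to CTR4, against -1.35, -1.39, -1.43 and -1.60 in ONC1 to ONC4. The 8 values overlapped within 0.28, and the log2 fold change was 0.08 (SE 0.09, adjusted p = 0.714). That value ran from 0.043 to 0.13 without 1 retina and was 0.20 without loess. Of 7 beaded, network and anchoring collagens, 3 were measured. Among these, Col8a1, a network collagen of vascular and corneal basement membranes, had -2.98, -3.43, -3.08 and -2.15 in CTR1 to CTR4, against -2.59, -3.41, -2.73 and -2.31 in ONC1 to ONC4. Both channels of array 2 were lowest and both of array 4 highest, ONC was higher on 3 of 4 arrays, and the log2 fold change of 0.15 (SE 0.30, adjusted p = 0.838) was small beside a range of 1.19 between array means. Without loess it was 0.52, a call with the block.

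Among all 25 measured collagens 10 were higher and 15 lower in ONC, and the median of their log2 fold changes was -0.03; without loess the split turned to 17 higher and 8 lower, with a median of 0.11. The direction of the family therefore depends on the scaling.

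The 3 measured laminins were 1 chain of each kind. The alpha chain Lama5, of mature basement membranes, had -1.92, -2.22, -1.92 and -1.76 in CTR1 to CTR4, against -1.90, -2.18, -2.02 and -1.84 in ONC1 to ONC4, lowest on array 2 and highest on array 4 in both channels (log2 fold change -0.03, SE 0.12, adjusted p = 0.934). The beta chain Lamb2, needed for the inner limiting membrane and for photoreceptor synapses, had -1.29, -1.57, -1.31 and -0.75 in CTR1 to CTR4, against -1.39, -1.69, -1.55 and -1.28 in ONC1 to ONC4. CTR4 stood above the other 7 channels, array 2 was again lowest, and the ONC channel was the lower on each array, with a log2 fold change of -0.25 (SE 0.17, adjusted p = 0.486), or -0.089 without CTR4. The gamma chain Lamc1, shared by most laminins, was the most even of all 50 genes, at 0.15, 0.23, 0.24 and 0.20 in CTR1 to CTR4, against 0.21, 0.21, 0.27 and 0.15 in ONC1 to ONC4. Its range was 0.11 and its log2 fold change 0.00 (SE 0.07, adjusted p = 0.984). Lamb1 was not analysed here.

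Of 15 secreted MMPs, 4 were measured. Mmp2, the gelatinase of resting tissue, had -2.08, -2.61, -1.80 and -2.03 in CTR1 to CTR4, against -2.52, -2.49, -2.48 and -2.26 in ONC1 to ONC4. CTR2 was the lowest channel and the other 3 CTR channels the highest, so the groups overlapped through CTR2 alone (log2 fold change -0.31, SE 0.16, adjusted p = 0.36). That value was -0.47 without CTR2, -0.20 without CTR3 and -0.072 without loess. Mmp11, a stromelysin of fibroblasts, had -3.63, -3.54, -3.52 and -3.13 in CTR1 to CTR4, against -3.40, -3.31, -3.96 and -3.17 in ONC1 to ONC4, with a mean of -3.46 in both groups and ONC3 lowest. Without loess its fold change reached 0.59 (adjusted p = 0.0519; 0.0519 to 1.0 over 15 other settings without the block), a call with the block, and in the 4 channels whose dye is the same in labels and methods it was -0.35. It was well above background in 7 of 8 channels, as were Mmp13 and Mmp28, whose log2 fold changes were 0.20 and 0.12.

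All 6 membrane-bound MMPs named on the arrays were measured. Mmp14, which activates pro-Mmp2 at the cell surface, had 1.03, 0.70, 1.80 and 1.78 in CTR1 to CTR4, against 1.20, 1.253, 1.245 and 1.14 in ONC1 to ONC4. CTR3 and CTR4 were high and CTR2 low, and the 4 ONC retinas lay close together inside the CTR range (log2 fold change -0.11, SE 0.24, adjusted p = 0.849). Its probe was printed on 10 spots, 9 of which were kept, with an SD between spots of 0.10 in CTR3 and 0.34 in ONC2, the lowest and the highest.

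Mmp15, another membrane protease, had 3.57, 3.47, 3.38 and 3.53 in CTR1 to CTR4, against 3.71, 3.57, 3.68 and 3.81 in ONC1 to ONC4. ONC was the higher on each of the 4 arrays and the groups met at ONC2 and CTR1 (log2 fold change 0.20, SE 0.09, adjusted p = 0.245). Mmp24, a membrane MMP of neurons that cuts cadherins, had 1.98, 2.201, -0.21 and 1.80 in CTR1 to CTR4, against 2.13, 2.04, 1.95 and 1.92 in ONC1 to ONC4. The channel CTR3 alone was low, and the log2 fold change of 0.57 (SE 0.46, adjusted p = 0.565), the largest of the 50 in size, rests on it: without CTR3 it was 0.01. The spot, the only one for this gene, had a foreground of 1091 over a background of 39 in CTR3 and of 3422 over 23 in ONC3 on the same array, with no outlier flag. Over the 10 measured MMPs 6 were higher and 4 lower in ONC, with a median of 0.08. The median was 0.35 without loess, where 8 were higher, and with normexp 7 were higher.

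In the aggrecanase branch of the ADAMTS family, Adamts5 had 0.57, 0.25, 0.04 and 0.20 in CTR1 to CTR4, against 0.47, 0.16, 0.43 and 0.66 in ONC1 to ONC4. The groups overlapped and the ONC channel was higher on 2 of 4 arrays (log2 fold change 0.17, SE 0.14, adjusted p = 0.582). Adamts5 ran from 0.089 to 0.27 in fold change without 1 retina. Its probe lay 69.2 kb from that of Adamts1 on chromosome 11 (rn4), and the 2 neighbors had fold changes of opposite sign. Adamts15, of the same branch, was even, with a log2 fold change of -0.07.

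Adamts7, which cuts the cartilage protein COMP, had -0.22, -0.05, -0.68 and -0.39 in CTR1 to CTR4, against 0.22, 0.01, 0.24 and -0.10 in ONC1 to ONC4. ONC was higher on 4 of 4 arrays, most on array 3 and least on array 2, and the groups overlapped only through CTR2 and ONC4 (log2 fold change 0.43, SE 0.14, adjusted p = 0.165). Adamts2, which removes the amino-terminal propeptide of fibrillar procollagens, had -2.85, -3.45, -3.65 and -3.39 in CTR1 to CTR4, against -3.36, -3.52, -4.16 and -3.58 in ONC1 to ONC4, lower in ONC on each array but with CTR1 and ONC3 apart from the rest (log2 fold change -0.32, SE 0.21, adjusted p = 0.459). It was well above background in 6 of 8 channels. Its fold change was -0.16 without CTR1, -0.15 without ONC3 and 0.29 without loess. Over the 8 measured ADAMTS genes 4 were higher and 4 lower in ONC, and 6 were higher without loess. Adamts9, Adamts10, Adamts12, Adamts14, Adamts16 and Adamts19 were not measured.

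Timp1, the inducible inhibitor, had the widest range of the 50 genes. Its log2 level was 1.34, 0.19, 2.22 and 2.29 in CTR1 to CTR4, against 1.98, -0.13, 1.81 and 1.58 in ONC1 to ONC4. Both channels of array 2 were low and the other 6 channels high, whatever their label, within a range of 2.43, 5.39-fold. The log2 fold change was -0.20 (SE 0.57, adjusted p = 0.892). The summed RGC markers were high in both channels of array 2, at 23.8 in CTR2 and 27.4 in ONC2. Array and RGC marker level cannot be told apart on that array. These markers were also high in ONC1 and ONC3, where Timp1 was high. All 10 spots of the Timp1 probe at chrX:12542700-12543703 (rn4) were kept. The highest spot was at 0.46 in CTR2 and at 0.20 in ONC2, and the lowest spot in any of the other 6 channels was at 0.79, so no spot of array 2 reached any spot of the other arrays. On the other 3 arrays the labels had no common order: CTR was lower on array 1 and higher on arrays 3 and 4. The fold change was 0.28 without ONC2, 0.03 without CTR3 and 0.06 without CTR4, so its sign rests on single retinas.

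The other inhibitors varied less. Timp2, the most widely expressed of them and a partner of Mmp14 in activating Mmp2, had 2.78, 2.92, 3.11 and 3.46 in CTR1 to CTR4, against 2.84, 3.09, 3.06 and 3.28 in ONC1 to ONC4, higher on array 4 and lower on array 1 in both channels (log2 fold change 0.00, SE 0.16, adjusted p = 0.998). Timp3, which is bound to the matrix and abundant under the pigment epithelium, had -1.50, -1.998, -1.74 and -2.07 in CTR1 to CTR4, against -1.67, -2.07, -1.67 and -1.73 in ONC1 to ONC4, with array 2 low in both channels and CTR4 as low (log2 fold change 0.04, SE 0.15, adjusted p = 0.918). That value was 0.19 without loess and 0.37 in the 4 channels whose dye is the same in labels and methods. Timp4, the inhibitor with the narrowest tissue range, had -2.90, -3.37, -3.24 and -3.33 in CTR1 to CTR4, against -3.21, -3.25, -3.29 and -3.01 in ONC1 to ONC4, without an order between groups (log2 fold change 0.02, SE 0.12, adjusted p = 0.947). Without loess it reached 0.53 (adjusted p = 0.0367), and over all 16 other settings without the block the adjusted p ran from 0.0367 to 1.0. The ONC mean was the higher for 3 of the 4 inhibitors, for 2 of 4 without loess and for 1 of 4 with the processed signals.

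**Figure D3:**
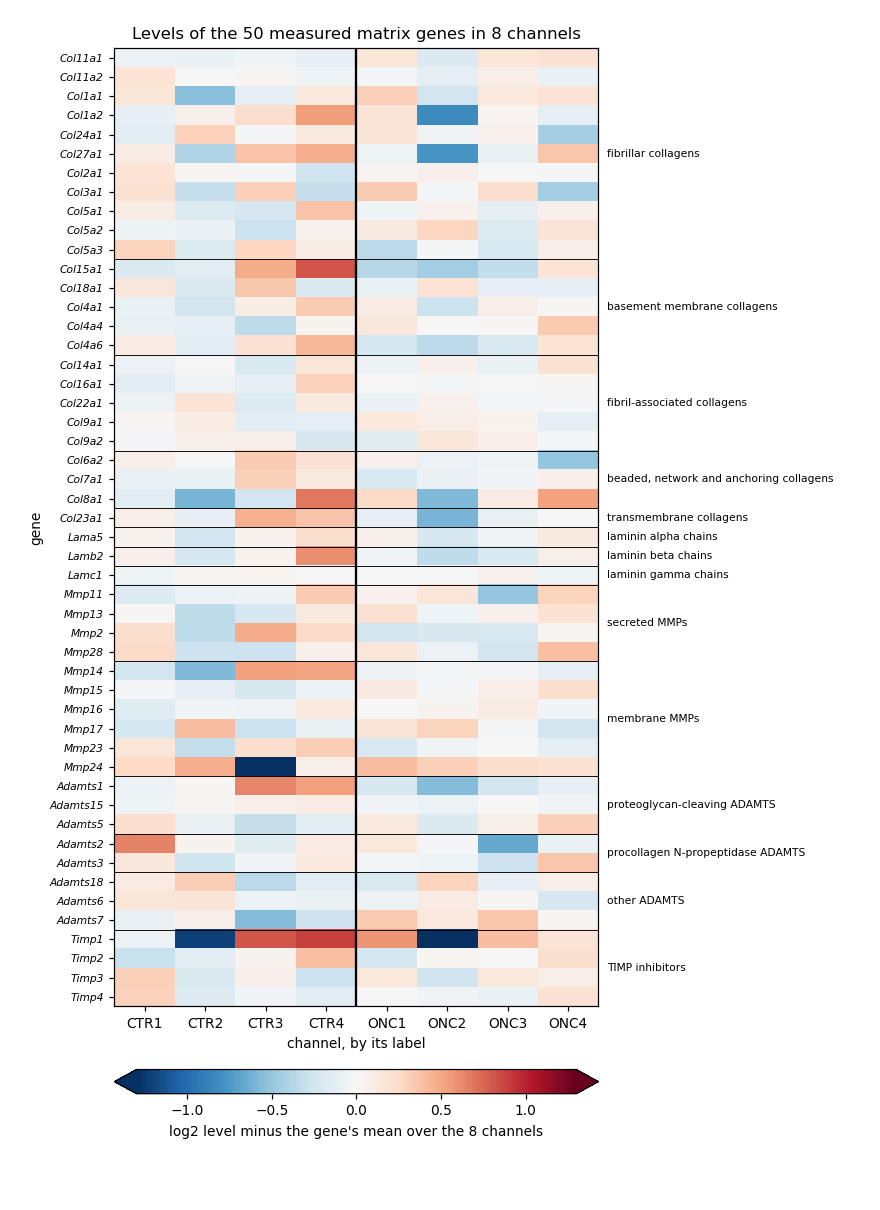
Log2 level of each of the 50 measured genes in the 8 channels, as the difference from the mean of the gene, grouped by role; the vertical line divides the labels. Timp1 and Col8a1 are low in both CTR2 and ONC2, the channels of array 2, Mmp24 is low in CTR3 alone, and Col15a1 and Adamts1 are high in CTR3 and CTR4.

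The spread was also divided between arrays and labels. The range of the 4 array means was wider than the difference between labels for 46 of the 50, all but Adamts1, Adamts7, Col5a3 and Mmp15, and for 81.2% of all genes. Of the sum of squares over the 8 channels, a median of 62.8% lay between arrays and 11.9% between labels, against 54.8% and 16.4% for all genes. Arrays hold 42.9% and labels 14.3% of the degrees of freedom, and a range of 4 means tends to exceed a difference of 2, so these measures favor the array beforehand. RGC markers were high in both channels of array 2 and low in both of array 4. Spread between these arrays and spread with the RGC markers therefore cannot be told apart. Array 2 had the lowest mean for 24 of the 50, or 48.0%, against 45.7% of all genes, and array 4 the highest for 23, or 46.0%, against 45.1%. The pattern over the arrays is thus one that the matrix genes shared with the rest of the measured genes. The median range over the 8 channels was 0.63 for the 50 and 0.57 for all genes. Over the 6 of these probes with more than 1 kept spot the median SD between spots was 0.23, and over 1220 such probes of all genes it was 0.20.

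**Figure D4:**
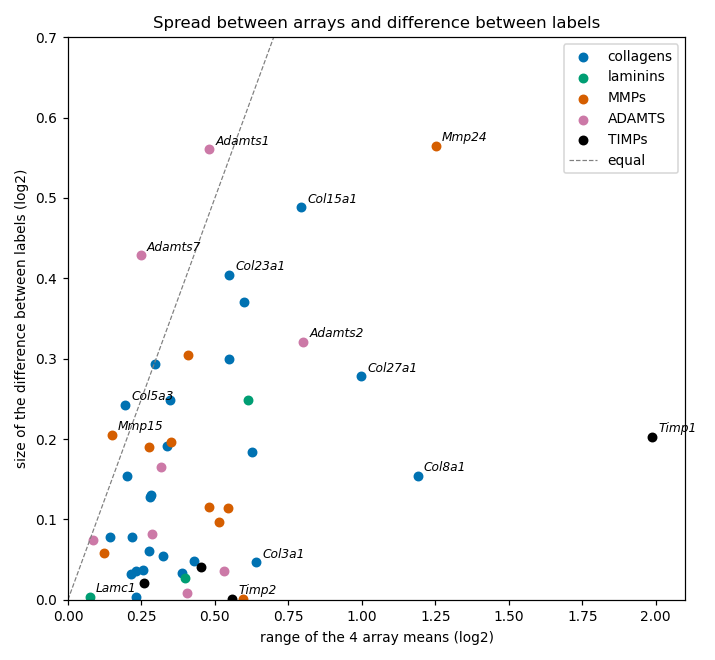
Size of the log2 difference between labels against the range of the 4 array means (log2) for the 50 measured genes, colored by family; the dashed line marks equal values. The points for Adamts1, Adamts7, Col5a3 and Mmp15 lie above the line and the other 46 below it, with Timp1 farthest to the right at 1.99.

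For 8 genes more than 1 probe was measured. The probes of Col11a1 ran from -0.02 to 0.39 in log2 fold change, those of Col11a2 from -0.22 to 0.06, those of Col9a1 from -0.01 to 0.15 and those of Timp4 from -0.05 to 0.09, so that in these 4 genes they differed in sign. The probes of Col1a1, Col5a2, Col4a1 and Col23a1 had the same sign.

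Genes of the matrix outside these families were read from a list of 125, written from general knowledge, of which 113 were named on the arrays and 74 measured. Their median log2 fold change was -0.06, with 25 higher and 49 lower in ONC, but without loess it was 0.10, with 45 higher and 29 lower. In limma 1 of 74 passed, the laminin receptor Dag1 (dystroglycan), against 0.497% of all genes. With the block 4 passed, all lower in ONC, against 7.69% of all genes in either direction and 4.61% lower. Dag1 had 3.74, 3.89, 3.90 and 3.86 in CTR1 to CTR4, against 3.33, 3.43, 3.395 and 3.28 in ONC1 to ONC4. The groups were apart, with each of the 4 arrays lower in ONC, and the log2 fold change of -0.49 (SE 0.08) had an adjusted p of 0.0438. Over 16 other settings without the block the adjusted p ran from 0.0084 to 0.384 and 4 settings called it, while the log2 fold change ran from -0.59 to -0.30 and, without 1 retina, from -0.53 to -0.46. Without 1 retina no gene on the arrays passed in 7 of 8 fits.

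The protease inhibitor A2m had 5.61, 5.79, 6.21 and 6.47 in CTR1 to CTR4, against 4.86, 5.43, 5.04 and 5.42 in ONC1 to ONC4, with groups that did not overlap and CTR3 and CTR4 highest (log2 fold change -0.83, SE 0.21, adjusted p = 0.0886 in limma and 0.0336 with the block). Pcolce, the enhancer of procollagen C-proteinase, had 0.09, -0.15, 0.25 and 0.82 in CTR1 to CTR4, against -0.14, -0.56, -0.30 and 0.02 in ONC1 to ONC4, with CTR4 highest and ONC2 lowest (log2 fold change -0.50, SE 0.21, adjusted p = 0.244 in limma and 0.0444 with the block), or -0.31 without CTR4 and -0.22 with the brightest probe. Adamtsl5, an ADAMTS-like protein with no protease domain, had -1.59, -1.96, -1.45 and -1.73 in CTR1 to CTR4, against -2.15, -2.36, -2.13 and -2.04 in ONC1 to ONC4, with each ONC channel below each CTR channel (log2 fold change -0.49, SE 0.12, adjusted p = 0.0925 in limma and 0.034 with the block). For these 3 genes the adjusted p over 16 other settings without the block ran from 0.0126 to 0.384, from 0.123 to 0.547 and from 0.0508 to 1.0, in the same order. Of 26 matrix receptors, 17 were measured, 4 higher and 13 lower in ONC, or 12 higher and 5 lower without loess, and 1 passed. Of 8 lecticans and link proteins, the proteoglycans of perineuronal nets and the proteins that tie them to hyaluronan, 5 were measured, 4 higher and 1 lower, or 3 higher and 2 lower with normexp or Aquantile scaling and 5 higher without loess, where the median was 0.42 against 0.10, and none passed in limma, with 1 of 5 at an unadjusted p under 0.05, against 18.6% of all genes.

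Markers of the cells that make retinal matrix were set beside these values. All 5 measured markers of reactive glia, of 6 listed, had a lower mean in ONC, under each of the 4 other scalings and background settings too, and their summed level was 10.7, 13.1, 18.5 and 27.8 in CTR1 to CTR4, against 9.77, 11.4, 9.73 and 11.4 in ONC1 to ONC4, with Vim the brightest on average over the channels. The 10 markers of microglia and macrophages, all measured, summed to 13.8, 9.69, 18.0 and 18.7 in CTR1 to CTR4, against 10.6, 12.2, 10.4 and 12.9 in ONC1 to ONC4, with Ctss the brightest. Both lists were highest in CTR3 and CTR4, the channels in which Adamts1, Col15a1, Mmp14, Timp1 and A2m were also high. Their part in these levels was not tested.

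Vascular and stromal markers had another pattern. The endothelial list, 8 measured of 9, summed to 96.8, 70.1, 91.4 and 89.8 in CTR1 to CTR4, against 87.0, 90.9, 86.9 and 111.2 in ONC1 to ONC4, with Kdr, 93.4% to 94.8% of each sum, the brightest and Tek well above background in no channel. The 9 markers of pericytes and smooth muscle summed to 7.63, 6.69, 7.52 and 8.01 in CTR1 to CTR4, against 7.84, 7.33, 7.33 and 7.502 in ONC1 to ONC4, with Des, 47.1% to 59.0% of each sum, the brightest. CTR2 was the lowest channel of both lists by sum and by median, and ONC4 or CTR4 the highest. Of 8 fibroblast markers 4 were measured, with Igf2, 68% to 78.6% of each sum, the brightest. Of the other 4, Mgp was well above background in 8 channels, Dcn in 3, Fbln1 in 1 and Lum in none. The 4 measured summed to 16.7, 14.3, 19.4 and 19.9 in CTR1 to CTR4, against 18.5, 18.6, 17.7 and 22.1 in ONC1 to ONC4. The part of these cells in the levels of the collagens was not tested.

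**Figure D5:**
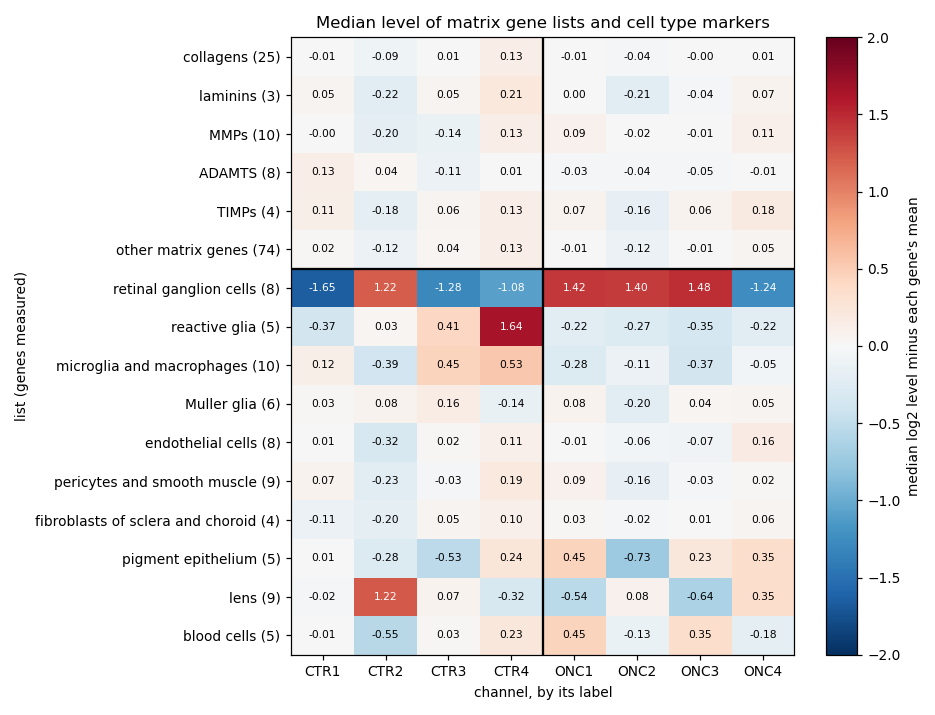
Median over each list of the log2 level in a channel minus the mean of the gene, for the matrix families, the other matrix genes and 10 lists of cell type markers, with the number of genes measured in brackets. The matrix lists run from -0.22 to 0.21, whereas the RGC list swings between -1.65 and 1.48 and the list of reactive glia reaches 1.64 in CTR4.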

How the data were processed

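The authors deposited the spot files of 4 arrays as Agilent Feature Extraction wrote them (12.0.3.1 per the file headers, 11.1.19.1 per the labels), and the unit of their values is intensity: mean foreground, median local background and a processed signal per channel. Of 44254 spots, 42877 are not controls. A spot was used if it had no outlier flag and 2 times its background or more in each of the 8 channels, which kept 27371 spots and 16307 genes; no spot was saturated. Background was subtracted, each array normalized by loess (span 0.3), each channel centered on its median, and spots and then probes averaged per gene name on the log2 scale, so a level is a log2 value over the channel median. Probes differ in response, so summed levels and the brightest gene of a list, by its mean over the 8 channels, describe signal and not RNA amount. Median foreground ran from 218.1 in ONC4 to 626.0 in CTR2. The number of arrays limits the precision. Without the block, p-values measure the spread between single retinas, and with it the spread of the differences within arrays.

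ONC and CTR were compared over all genes by limma's moderated test (version 3.58.1, R 4.3.3), two-sided, with p adjusted by Benjamini-Hochberg and called under 0.05, without a block as in the methods, after a test on simulated data. All adjusted p-values are from limma. The labels give the same number to the retinas of 1 array. The deviations of same-numbered channels from their group means correlated at 0.149, 0.549, 0.401 and 0.487, so the array was also used as a block. Between channels with different numbers the correlation ran from -0.512 (CTR2 with ONC4) to 0.171 (CTR1 with ONC2). The latter was above the 0.149 of array 1. Alternatives changed the background, the scaling, the filter, the probe and the channels. Tables and figures were made in Python 3.11.15 with pandas 2.3.3 and matplotlib 3.10.9.

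Genes were named in full where they passed the filter and were called with or without the block, were among the 3 of their family with the largest fold change or the widest range, or stood on a list of textbook members; other matrix genes were named where called. Further members appear by their counts and ranges. The members and lists were chosen with earlier results of these data known, and Mmp1 was added to the secreted MMPs after the files were seen. No value from the study was used.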

Additional observations from a re-analysis of the deposited data

Results flagged for a closer look

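In 62 groups of 4 channels (27 matrix genes of the families described and 4 others, in CTR and in ONC), 4 values stood apart from the other 3 by a gap that filled most of the range of their group, past the 95% critical value of Dixon's test. Chance flags about 1 in 20 groups; that rate is for groups not picked by their values, and some of these genes were named for a wide range or a large fold change.

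Mmp24 was at -0.21 in CTR3, and the next CTR channel was at 1.80. Col18a1 was at -0.19 in ONC2, above the next ONC channel at -0.45. Mmp2 was at -2.26 in ONC4, above the next at -2.48. Timp3 was at -2.07 in ONC2, below the next at -1.73. The causes were not tested.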

How the results depend on the processing

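The count of genes passing, 81, was 3194 without loess (2267 higher and 927 lower in ONC), 412 with Aquantile scaling, 14 with normexp, 21 with the processed signals, 0 of 25942 with normexp and no filter on dim spots together (1957 at an unadjusted p under 0.05), 123 with spots well above background only, 124 with the brightest probe, 1254 with the block, 0 with the 4 channels whose dye is the same in labels and methods (1961 unadjusted) and 0 to 38 without 1 retina. Members passing, 0, were 8 without loess, 3 with the block and 0 in the other settings, in limma. Their median, -0.00, was 0.15 without loess, -0.058 with the processed signals and -0.04 to 0.00 without 1 retina.

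With the block, in settings chosen after seeing the data, 5371 genes and 16 members passed without loess, 1253 and 3 with Aquantile scaling, 0 and 0 with the processed signals (4371 and 9 unadjusted), and 0 to 0 genes and 0 to 0 members without 1 array.

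Without loess, Col24a1 turned from -0.13 to 0.60, a call higher in ONC with and without the block. Col4a1, Mmp11, Adamts6 and Mmp23 turned to calls higher with the block only. Among the genes described singly, signs reversed as follows, none past the threshold without the block. Without loess, Adamts2 was at 0.29, Col15a1 0.14, Col4a1 0.30, Lama5 0.14, Lamc1 -0.0031, Mmp11 0.59 and Timp2 -0.075. With the processed signals, Col18a1 was at 0.12, Col3a1 -0.042, Mmp11 0.018, Timp2 -0.079 and Timp4 -0.010. Mmp11 was at 0.035 with normexp and 0.028 with normexp and no filter together, where Lamc1 was at -0.023. With spots well above background only, Timp2 was at -0.00055 and Timp4 at -0.0059. With the 4 channels, Col18a1 was at 0.097, Col4a1 0.042, Lama5 0.033, Timp1 0.65 and Timp2 -0.24.

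Without 1 retina, the sign also turned within these ranges: Col18a1 -0.14 to 0.047, Col2a1 -0.045 to 0.10, Col3a1 -0.055 to 0.20, Col4a1 -0.14 to 0.052, Col8a1 -0.019 to 0.41, Lama5 -0.11 to 0.038, Lamc1 -0.016 to 0.022, Mmp11 -0.098 to 0.17, Mmp14 -0.32 to 0.043, Timp1 -0.64 to 0.28, Timp2 -0.095 to 0.13, Timp3 -0.042 to 0.15 and Timp4 -0.038 to 0.13. The cause was not tested for any of these changes.

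Of 31 genes described singly, 31 kept their sign and their side of the threshold with Aquantile scaling and with the brightest probe, and 20 without loess, where 7 reversed and 4 newly passed (Adamts1, Col1a1, Timp4 and A2m). Signal over background limits the dim genes: 32 of 82 were not measured, by their Cy5 channels. With 4 arrays, small differences could not be detected.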

Other observations

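Lens and pigment epithelium markers also varied between channels. All 9 lens markers were measured, with Crygs the brightest, and they summed to 67.1, 162.4, 80.8 and 52.9 in CTR1 to CTR4, against 44.7, 73.2, 43.5 and 87.8 in ONC1 to ONC4. The groups overlapped, CTR2 was the highest channel, and 8 of 9 markers had a lower mean in ONC under each scaling tried. The pigment epithelium list, 5 measured of 10, with Ttr, 87.5% to 92.3% of each sum, the brightest, summed to 47.0, 40.2, 35.7 and 71.1 in CTR1 to CTR4, against 66.2, 24.8, 65.0 and 61.9 in ONC1 to ONC4. The groups overlapped, and ONC2 was lowest by sum and by list median, while CTR4 was highest by sum and ONC1 by median. All 5 markers had a higher mean in ONC, and 4 of 5 without loess. The part of either list in the matrix levels was not tested.

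Gfap, the intermediate filament of reactive glia, had log2 levels of -1.84, -1.71, -0.20 and 0.17 in CTR1 to CTR4, against -1.67, -3.26, -1.57 and -1.69 in ONC1 to ONC4. It was highest in CTR3 and CTR4 and lowest in ONC2. Among the Müller glia markers 6 of 7 were measured, with Dkk3, 67.8% to 79.0% of each sum, the brightest. Their sum ran from 134.1 in CTR4 to 182.5 in CTR1, and their median from -0.20 in ONC2 to 0.16 in CTR3.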
